A study of Homo sapiens with 15 samples.

Results

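The 10 noncoding RNAs described here are host transcripts of small nucleolar RNAs (snoRNAs): GAS5, ZFAS1, EPB41L4A-AS1 and the snoRNA host genes SNHG1, SNHG5, SNHG7, SNHG8, SNHG12, SNHG15 and SNHG16. They were chosen by name, and their probes were found through the RefSeq accession that the array files give for each probe. All 10 were on the array with 22 probes in total, and they make up 10 of the 26826 features (1 probe per gene) that were tested. A2058 cells, an established human malignant melanoma line grown in EMEM with 10% FBS, were exposed for 8 hours to NP (3 μM), to metformin (MET, 5 mM), to phenformin (PHEN, 50 μM), or to the solvents DMSO and water (W). The series title spells NP out as neopetasin, whereas the study's methods name petasin for A2058 arrays at the same dose. The arrays do not settle which of the 2 was used, and the compound is called NP here as on the labels. Each group held 3 arrays, 1 from each of 3 independent experiments, so that there were 15 single-dye arrays in all. NP was set against DMSO, and both biguanides against water. The study treats petasin, metformin and phenformin as inhibitors of mitochondrial complex I and reports no complex I assay of neopetasin.

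A snoRNA host gene is transcribed as a long precursor whose introns carry the snoRNAs. Splicing releases the introns, and the snoRNAs, which guide ribose methylation (box C/D type) or pseudouridylation (box H/ACA type) of ribosomal RNA, are trimmed out of them. The spliced exons that remain have short reading frames, and for several hosts, GAS5 best known among them, translation of these frames exposes the RNA to nonsense-mediated decay. The level of such a host is therefore known to depend on translation as well as on transcription, and GAS5 takes its name from accumulating in growth-arrested cells. Many hosts also begin with a terminal oligopyrimidine tract, a C followed by a run of C or T, as the messenger RNAs of ribosomal proteins do.

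By the RefSeq annotation of GRCh38.p14, the 10 genes are all annotated as long noncoding RNA genes and hold 37 snoRNA genes within their bounds. GAS5 (chr1:173863901-173869045) holds 11, and SNHG1 (chr11:62851978-62855885) holds 9. SNHG12 (chr1:28578538-28582983) holds 4, ZFAS1 (chr20:49278178-49289260) and SNHG16 (chr17:76557764-76565348) hold 3 each, and SNHG5 (chr6:85677007-85678733) and SNHG7 (chr9:136724594-136728184) hold 2 each. SNHG8 (chr4:118278762-118279823), SNHG15 (chr7:44983023-44986696) and EPB41L4A-AS1 (chr5:112160526-112162501) hold 1 each. Promoter sequence was at hand for 9 of the 10, all except SNHG15. A pyrimidine tract, here a C followed by at least 4 letters that are C or T within 10 bases of the annotated start on the transcribed strand, was found in 6 of 9 (66.7%), in 76.2% of 21 promoters of ribosomal protein genes that host snoRNAs and in 33.5% of all 35116 promoters. The 30 bases around the annotated start of these 6 and of GAS5 are shown because the tract is the start feature that the hosts have in common with ribosomal protein genes. They run in the direction of transcription from 10 bases before the start, and capitals mark the tract.
SNHG5 (chr6:85678714-85678743, minus strand): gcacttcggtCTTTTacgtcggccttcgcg
ZFAS1 (chr20:49278632-49278661, plus strand): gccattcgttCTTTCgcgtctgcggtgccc
SNHG12 (chr1:28581854-28581883, minus strand): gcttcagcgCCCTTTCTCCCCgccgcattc
SNHG7 (chr9:136728165-136728194, minus strand): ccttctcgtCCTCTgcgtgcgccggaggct
SNHG8 (chr4:118278752-118278781, plus strand): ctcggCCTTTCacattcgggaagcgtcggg
SNHG16 (chr17:76557754-76557783, plus strand): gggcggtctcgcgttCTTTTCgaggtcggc
GAS5 (chr1:173869026-173869055, minus strand): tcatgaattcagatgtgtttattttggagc
In SNHG5 and ZFAS1 the tract began at the annotated first base. The windows of GAS5, SNHG1 and EPB41L4A-AS1 held no such tract, which describes only the annotated start used here. Over the longer window from 250 bases before to 50 bases after the start, the E-box CACGTG, searched on both strands, lay in 1 of 9 (SNHG7) and in 7.26% of all promoters. The core TGATGNAA, to which ATF4 with CHOP is known to bind, also searched on both strands, lay in 0 of 9 and in 3.62% of all promoters.

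Levels are given as the log2 signal of a probe minus the log2 75th percentile of its array, so that 0 is the 75th percentile and 1 unit is a doubling. A gene was read from its brightest probe, and levels of different probes were not set against each other, since probes differ in how they hybridize. In bulk RNA, fewer cells with a transcript and less of it per cell cannot be told apart. On every one of the 15 arrays, all 22 probes of the 10 genes were flagged as above background by the extraction software. Over these arrays 44.34% to 77.39% of the 58201 probes were above background, with water and metformin replicate 1 the 2 highest. The array of NP replicate 2 lay outside the quality range of the extraction software. The solvents and their compounds lay on separate slides (DMSO and NP on slides 1 and 2, water, metformin and phenformin on slides 3 and 4), so that solvent and slide cannot be told apart in any comparison across the 2 sets. Of 10 melanoma cell markers, 9 were above background on every array and TYR on 13, and MLANA (-0.99) and TYR (-2.94) lay below the 75th percentile on average. Of 10 markers of other cell types, 4 (PTPRC, PECAM1, CDH5 and KRT14) were above background on every array, although none of the 4 reached the 75th percentile of the arrays on average, and KRT5 and EPCAM were above background on none.

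**Figure D1:**
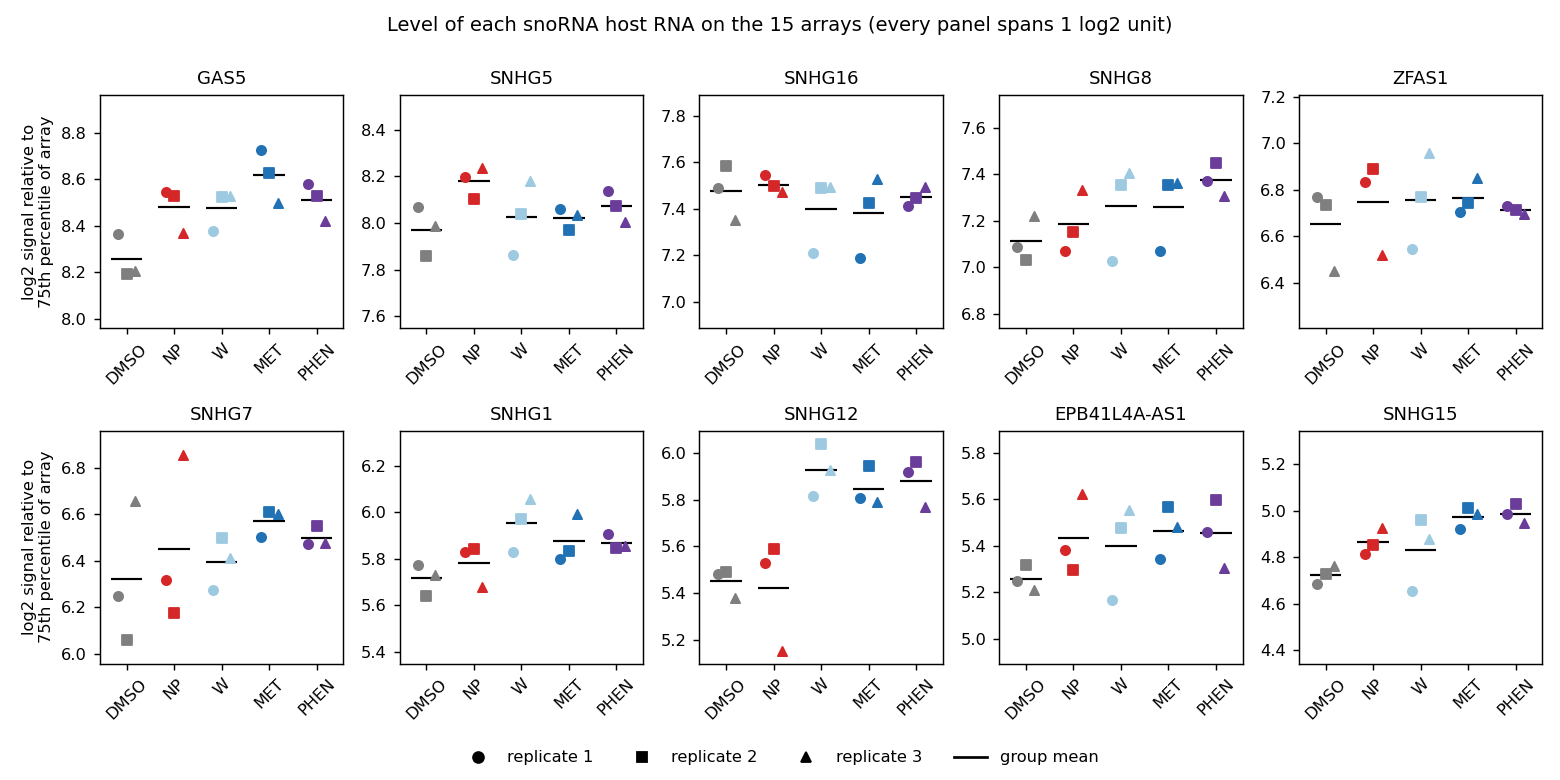
Level of each of the 10 host RNAs on each array, as log2 signal relative to the 75th percentile of the array, by group, with 1 point per array and a bar at the mean of 3. All panels span 1 log2 unit, the DMSO and NP points of GAS5, SNHG5 and SNHG15 do not overlap, and water replicate 1 (circle) is the lowest water array in all 10 panels.

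The first comparison was NP against DMSO. None of the 10 host RNAs passed the test after 8 hours of NP, although 9 of the 10 had a fitted level above that of DMSO, as 46.2% of all features did. The differences were small, from -0.03 for SNHG12 to 0.23 for GAS5 on the log2 scale, with a median of 0.11 against -0.01 over all features. By limma's test with Benjamini-Hochberg adjustment over all features, 0 of 10 were called at an adjusted p of at most 0.05 and a change of at least 1.5-fold, where 0.0373% of all features were called. The adjusted p of all 10 was 1 by limma. At an unadjusted p of at most 0.05, limma found 1 of the 10 higher and 0 lower, where 2.8% and 1.88% of all features were, and the paired t-test that the study's methods name found 2 (SNHG5 and SNHG15), where 7.6% of all features had such a p by that test.

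GAS5, the host of 11 snoRNAs, read 8.37, 8.19 and 8.21 in DMSO replicates 1 to 3, and 8.55, 8.53 and 8.37 in the NP replicates. The 2 groups did not overlap, but the lowest NP array and the highest DMSO array both rounded to 8.37. The fitted difference was 0.23 (SE 0.10, 95% interval 0.01 to 0.44), a fold of 1.17, with an unadjusted limma p of 0.0408. Its other probe gave 0.36, was higher in all 3 pairs and did not overlap either.

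SNHG5, which holds the pair SNORD50A and SNORD50B, read 8.07, 7.86 and 7.99 in DMSO and 8.20, 8.10 and 8.24 in NP. The lowest NP array lay above the highest DMSO array, and the 3 pairs differed by 0.13, 0.25 and 0.25. The fitted difference was 0.21 (SE 0.10, 95% interval -0.02 to 0.44, unadjusted limma p 0.0694). SNHG5 had 6 probes, all higher in NP in all 3 pairs, with fitted differences of 0.16 to 0.53, and 4 of the 6 did not overlap between the groups. The probe at 0.53 rested on 1 array, since DMSO replicate 1 read 5.94 there and the other DMSO arrays 6.85 and 6.90. That array was also the lowest for the probe at 0.34, at 4.49 against 4.86 and 4.92, and the pairs of this probe gave 0.70, 0.22 and 0.10. Both probes are among the 4 without overlap, and the share of all probes of the array without overlap was not computed.

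SNHG15, the host of SNORA9, read 4.68, 4.73 and 4.76 in DMSO and 4.82, 4.85 and 4.93 in NP, again without overlap. Its difference was 0.14 (SE 0.09, 95% interval -0.06 to 0.34), and its other 2 probes gave 0.08 and 0.09 with overlap. By the brightest probe, GAS5, SNHG5 and SNHG15 were the 3 of 10 whose NP arrays all lay above the DMSO arrays, which 3.02% of all features did. Among the 2293 features at least as bright as the dimmest of the 10, the share was 1.62%.

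The other 7 host RNAs overlapped between the groups. EPB41L4A-AS1, transcribed beside EPB41L4A and host of SNORA13, differed by 0.18 (SE 0.13), of which replicate 3 gave 0.41 and replicate 2 -0.02. SNHG7, the host of the SNORA17 pair, differed by 0.13 (SE 0.16) and was higher in all 3 pairs. Replicate 3 stood high for SNHG7 in both groups, at 6.66 in DMSO and 6.86 in NP against 6.06 to 6.32 on the other 4 arrays. ZFAS1, which holds the SNORD12 family, differed by 0.10 (SE 0.14) with all 3 pairs higher. The 4 probes of SNHG7 ran from -0.05 to 0.17. SNHG8 and SNHG1 each differed by 0.07, the second probe of SNHG1 by 0.03, and SNHG16 by 0.03. SNHG12 read 5.48, 5.49 and 5.38 in DMSO and 5.53, 5.59 and 5.15 in NP, so that 2 pairs were higher and the third lower by more.

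In all, 5 of the 10 were higher in NP in every pair and 0 were lower in every pair, against 14.3% and 18.9% of all features, and 11.9% of the features of like brightness were higher in every pair. Within the pairs 9, 8 and 8 of the 10 were higher, with medians of 0.07, 0.12 and 0.14. Over probes, 20 of 22 were higher by the fit, 13 were higher in all 3 pairs and 0 were lower in all 3. All 6 probes of SNHG5 were among these 13, and probes of a gene are not independent. The shares over all probes of the array were not computed. The 2 probes below 0 belonged to SNHG12 and SNHG7. For all 10 genes the 95% interval of the difference stayed inside 1.5-fold in both directions, with the highest upper bound at 0.48 (SNHG7) and the lowest lower bound at -0.26 (SNHG12). Without NP replicate 2, a choice made after seeing the data, the median was 0.14 and 0 of 10 had an unadjusted p of at most 0.05 by limma.

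**Figure D2:**
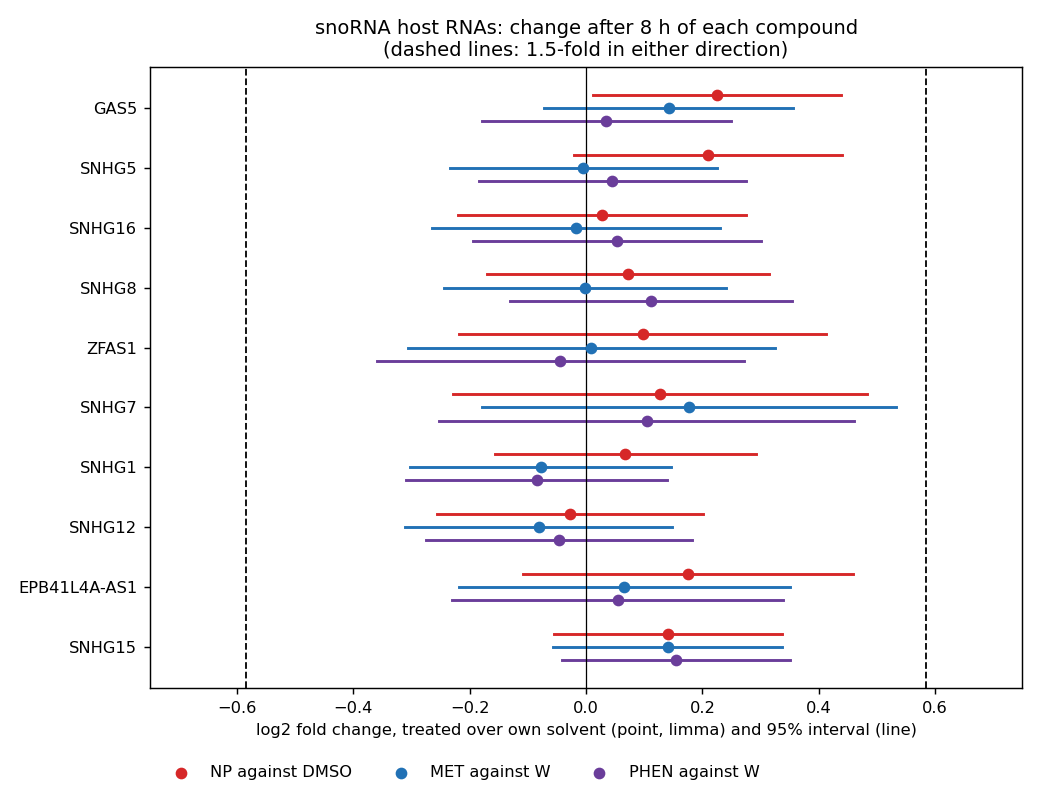
Fitted log2 fold change (point) and 95% interval (line) of each host RNA for NP against DMSO, metformin against water and phenformin against water, with dashed lines at 1.5-fold. None of the 30 intervals reaches a dashed line, and among the NP intervals that of GAS5 is the only one that lies wholly above 0.

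Metformin and phenformin were each set against water. After metformin 5 of the 10 host RNAs had a fitted level above water and 5 below, and after phenformin 7 above and 3 below, where 51% and 40.5% of all features lay above water. The medians were 0.00 and 0.05, against 0.00 and -0.03 over all features. By limma 0 of 10 were called for either compound, where 0% (metformin) and 0.0261% (phenformin) of all features were called, and 0 of 10 had an unadjusted p of at most 0.05 by limma in either comparison, where 2.46% and 2.35% of all features did. The paired t-test of the methods found 1 (SNHG7) for metformin and 0 for phenformin at an unadjusted p of at most 0.05, where 11.7% and 5.22% of all features passed it. All adjusted p values of the 10 were 1 by limma.

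SNHG7 had the largest difference for metformin. It read 6.27, 6.50 and 6.41 in water and 6.50, 6.61 and 6.60 in metformin, without overlap, although the lowest metformin array and the highest water array both rounded to 6.50. The difference was 0.18 (SE 0.16, 95% interval -0.18 to 0.53). By the brightest probe this was the 1 of 10 without overlap, where 3.48% of all features lay wholly above water. The 4 probes of SNHG7 disagreed in sign for each compound, from -0.13 to 0.19 for metformin and from -0.20 to 0.10 for phenformin, and a second one of them did not overlap water for metformin. The pair of probes with the same RefSeq accession differed in sign for phenformin (0.10 and -0.05).

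SNHG15 was the host RNA with the largest difference for phenformin. It read 4.66, 4.96 and 4.88 in water, 4.92, 5.01 and 4.98 in metformin, and 4.98, 5.03 and 4.95 in phenformin. The fitted differences were 0.14 for metformin and 0.16 for phenformin, each with an SE of 0.09, and all 3 pairs were higher for both compounds, as they were for SNHG7 in both comparisons. These 2 of 10 were the only ones higher in every pair, where 22.3% (metformin) and 12.2% (phenformin) of all features were, and 23.6% and 14.2% of the features at least as bright as the dimmest of the 10. By this probe both treated groups overlapped water, of which replicate 2 was the highest array. The other 2 probes of SNHG15 gave 0.22 and 0.19 for metformin and did not overlap water, at 1.96 to 2.08 against 1.70 to 1.89 and at 4.07 to 4.16 against 3.85 to 4.05. For phenformin they gave 0.15 and 0.18, and the second of them (4.09 to 4.13) did not overlap water.

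GAS5 read 8.38, 8.52 and 8.53 in water, 8.73, 8.63 and 8.50 in metformin, and 8.58, 8.53 and 8.42 in phenformin. The differences were 0.14 (SE 0.10) for metformin and 0.03 (SE 0.10) for phenformin, and by this probe in neither were all 3 pairs higher. The other GAS5 probe gave 0.29 for metformin, with all 3 pairs higher (0.37, 0.34 and 0.16) and the metformin arrays (5.65 to 5.71) wholly above water (5.28 to 5.52). For phenformin it gave 0.13 with 2 of 3 pairs higher. By the brightest probe no host RNA lay wholly above water for phenformin, where 3.83% of all features did. SNHG1 and SNHG12 were the 2 of 10 that were lower in every metformin pair, with fitted differences of -0.08 each, where 20.3% of all features were lower in every pair. The second SNHG1 probe read 0.04 for metformin and -0.01 for phenformin. The other 5 probes of SNHG5 lay between -0.05 and 0.03 for metformin and between -0.01 and 0.11 for phenformin. Over all 22 probes, 5 lay wholly above water for metformin and 1 for phenformin, and 0 wholly below. Those for metformin belonged to GAS5, SNHG7 and SNHG15 only, and probes of a gene are not independent. The share over all probes of the array was not computed. By the brightest probe SNHG5, SNHG8, SNHG16, ZFAS1 and EPB41L4A-AS1 lay between -0.02 and 0.07 for metformin and between -0.04 and 0.11 for phenformin.

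Water replicate 1 was the lowest of the 3 water arrays for all 10 host RNAs and the array with the most probes above background. In the replicate 1 pair 7 of 10 were higher for metformin and 10 of 10 for phenformin, with medians of 0.17 and 0.20. In the replicate 3 pair 3 of 10 and 2 of 10 were higher, with medians of -0.05 and -0.13. The features of like brightness had the same signs, with medians for phenformin of 0.14 in the replicate 1 pair and -0.08 in the replicate 3 pair. For metformin their medians were 0.07 and -0.02 in these pairs. Without water replicate 1, a choice made after seeing the data, the median of the 10 was -0.08 for metformin and -0.05 for phenformin. With all arrays the medians were 0.003 and 0.05, so that both turned. Without that array the number with a fitted level above water was 3 for each. The part of this array in the results was not tested further. The mean of the 10 over the NP arrays, 6.59 to 6.62, lay above that over the DMSO arrays, 6.46 to 6.52, whereas water spanned 6.48 to 6.74 around metformin (6.61 to 6.71) and phenformin (6.63 to 6.72).

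**Figure D3:**
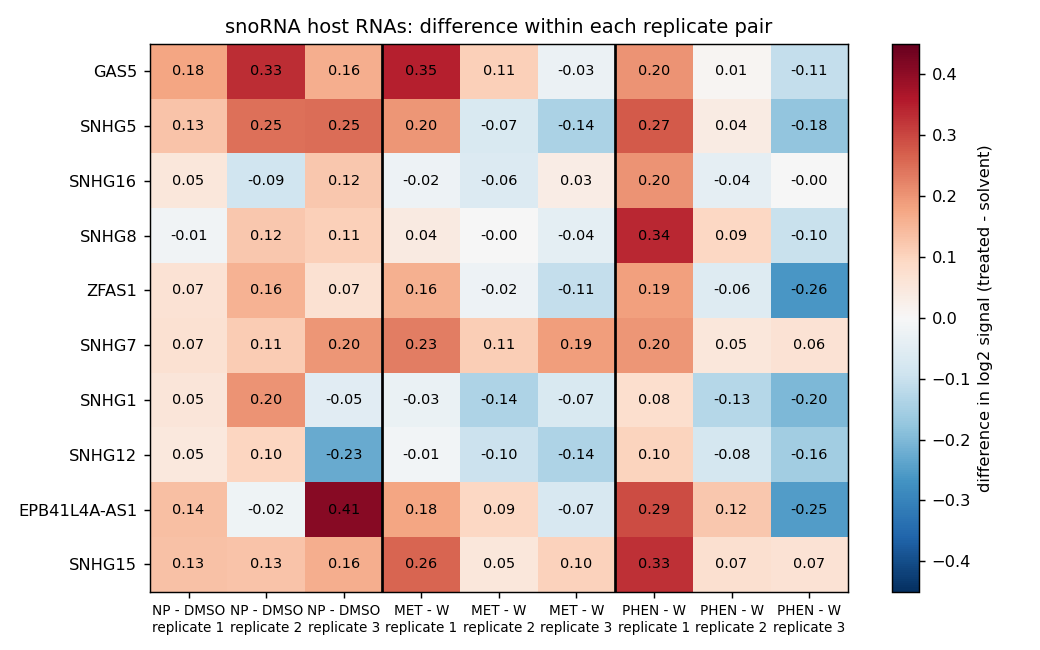
Difference in log2 signal between the treated and the solvent array of each replicate pair, for the 10 host RNAs (rows) in the 3 comparisons (columns), with the value printed in each cell and red for higher. All 10 cells of the first phenformin column are above 0 and 8 of the third are below 0, whereas 8 to 9 cells of every NP column are above 0.

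The effects of the compounds, each against its own solvent, were also tested against each other. The doses differ (3 μM NP, 5 mM metformin, 50 μM phenformin), so that the values stand side by side at these doses only. By limma 0 of 10 host RNAs were called for NP minus metformin, NP minus phenformin or phenformin against metformin, and 0 of 10 had an unadjusted p of at most 0.05 by limma in any of the 3. Of all features 0% were called in each, and 2.78%, 2.43% and 2.87% had such an unadjusted p. The widest differences were 0.21 for SNHG5 (NP minus metformin, 95% interval -0.11 to 0.54) and 0.19 for GAS5 (NP minus phenformin, 95% interval -0.11 to 0.49). For ZFAS1 the interval of NP minus phenformin ran from -0.30 to 0.59 and was the only one of these 30 to pass 1.5-fold.

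The levels in DMSO were also set against those in water. The 2 solvents lay on different slides, so that this comparison holds slide and solvent together. SNHG12 stood apart in it. It read 5.38 to 5.49 in DMSO and 5.82 to 6.04 in water, a difference of -0.48 (SE 0.10) with an adjusted p of 0.0148 by limma, which was smaller than the 1.5-fold needed for a call. SNHG1 (-0.24) and GAS5 (-0.22) also read lower in DMSO without overlap, with adjusted p values of 0.128 and 0.139 by limma, so that 3 of 10 lay wholly below water, where 20.4% of all features did. In the fit 1 of the 10 (SNHG16) lay above water, where 38.6% of all features did. No host RNA was called by limma, where 10.6% of all features were. At an unadjusted p of at most 0.05, 3 of the 10 (SNHG12, SNHG1 and GAS5) were lower by limma, as were 23% of all features, and the median of the 10 was -0.12, as was that of all features. With DMSO in place of water as the comparator, 3 of 10 for metformin and 4 of 10 for phenformin had an unadjusted p of at most 0.05 by limma, where 40% and 33.3% of all features did. For SNHG12 the NP arrays (5.15 to 5.59) stayed with DMSO, and the metformin and phenformin arrays (5.77 to 5.96) stayed with water.

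The snoRNAs inside the hosts were measured by probes of their own. Probes for 28 of the 37 snoRNAs were among the features tested, all 28 above background on all 15 arrays, and they belonged to 8 of the 10 hosts (not SNHG5 or SNHG7). Mature snoRNAs carry no poly(A) tail, and whether these probes read the snoRNA or the precursor and introns of the host was not tested. By limma 0 of 28 were called in any of the 3 comparisons with the own solvent, and the number at an unadjusted p of at most 0.05 was 1 higher for NP, 0 for metformin and 1 higher for phenformin. Of all features 2.8%, 1.38% and 0.816% were higher at such a p. The medians of the 28 were 0.03 for NP, -0.01 for metformin and 0.05 for phenformin. Those of the 215 other snoRNA and scaRNA features (scaRNAs are their kin in Cajal bodies) were 0.07, -0.01 and 0.00. Of these 215, 10, 3 and 4 were higher at such a p by limma, and 2 were lower in each comparison.

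The fitted differences of hosts and of their snoRNAs were set side by side, without a test between them. The 7 snoRNAs of GAS5 had a median of 0.04 for NP, below the 0.23 of the host, and ran from -0.12 (SNORD74) to 0.37 (SNORD77, of which the replicate 1 pair gave 1.17). Of the 8 snoRNAs of SNHG1, 2 were on the higher side for NP with a median of -0.10, where the host read 0.07, whereas for phenformin 7 of 8 were on the higher side and the host read -0.09. All 3 snoRNAs of ZFAS1 were on the higher side in each of the 3 comparisons, at 0.03 to 0.17 for NP. All 4 of SNHG12 were on the lower side for metformin (-0.27 to -0.14) and for phenformin (-0.20 to -0.06), as was their host (-0.08 and -0.05).

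SNORA13, encoded within EPB41L4A-AS1, was the snoRNA at an unadjusted p under 0.05 for NP. It read -1.10, -1.29 and -1.55 in DMSO and -0.88, -0.91 and -0.99 in NP. The groups did not overlap, and the difference was 0.38 (SE 0.10) with an unadjusted p of 0.00288 and an adjusted p of 0.54 by limma. Its water, metformin and phenformin arrays lay between -0.84 and -0.47, so that DMSO was the lowest group (DMSO against water -0.71, adjusted p 0.00403 by limma). SNORD76 of GAS5 was the one at an unadjusted p under 0.05 for phenformin, at 0.28 (SE 0.11, unadjusted p 0.03 and adjusted p 1 by limma).

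**Figure D4:**
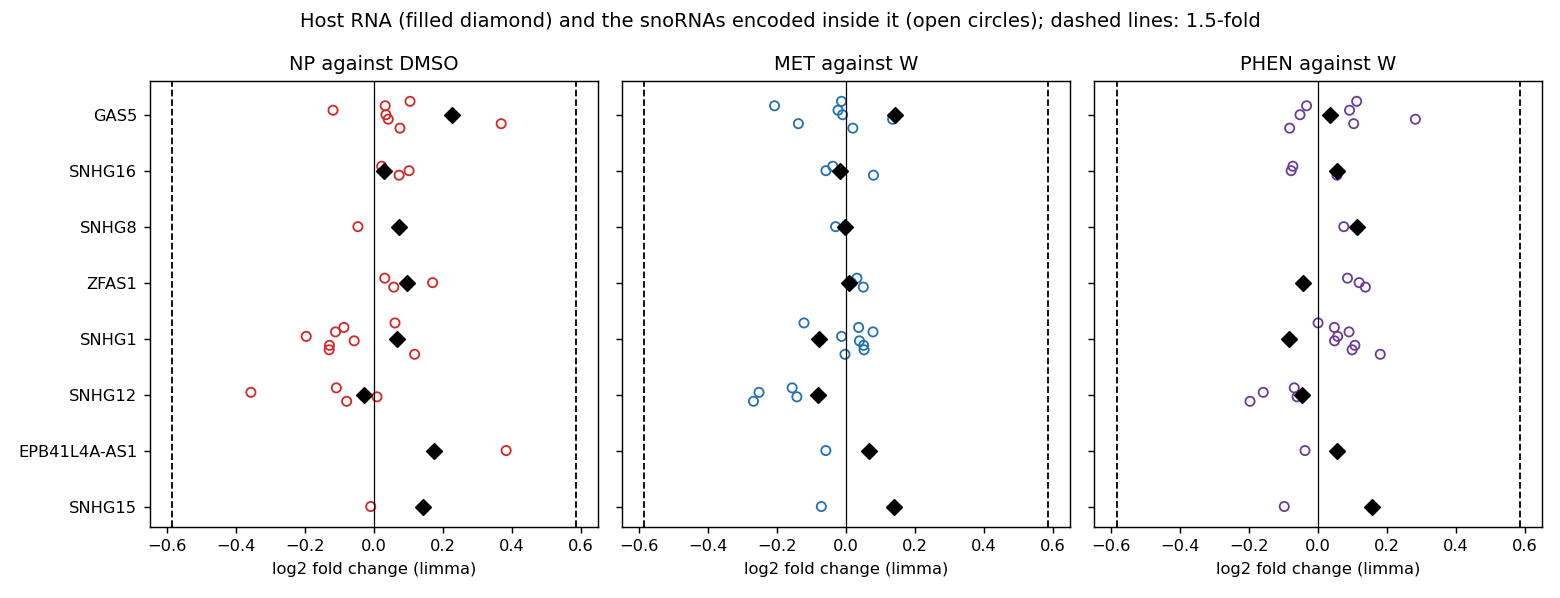
Fitted log2 fold change of 8 host RNAs (filled diamonds) and of the 28 snoRNAs encoded inside them (open circles) in the 3 comparisons, with dashed lines at 1.5-fold. No point reaches a dashed line, and the circles of SNHG12 lie below 0 for metformin and phenformin.

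Related genes were examined by lists. The other noncoding snoRNA hosts on the array (14 of 20 listed) had 0 calls by limma, 0 at an unadjusted p of at most 0.05 and a median of 0.04 for NP, or -0.00 over the 12 above background on all arrays. SNHG11 (0.20) and SNHG20 (0.18) were the 2 with the largest differences among those 12. The 22 ribosomal protein genes that host snoRNAs and were tested lay within -0.06 to 0.10 for NP, with 0 called and 0 at an unadjusted p of at most 0.05 by limma. RPL23 (0.10) and RPL12 (0.08), both of the large ribosomal subunit, differed most. Of 31 other coding hosts limma called 0, with 1 higher (EIF4A2, 0.23) and 1 lower (HSPA8) at an unadjusted p of at most 0.05. HSPA8, a constitutive HSP70 chaperone whose introns hold snoRNAs, read -0.61 for NP (SE 0.11, adjusted p 0.131 by limma). CNOT1, the scaffold of the CCR4-NOT deadenylase, read 0.25, with an unadjusted limma p of 0.0529.

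The 22 genes for nonsense-mediated decay factors had a median of -0.02 for NP, with 0 called and 0 at an unadjusted p of at most 0.05 by limma. SMG8 (-0.13), a subunit of the SMG1 kinase complex, and XRN1 (0.13), the cytoplasmic exonuclease, differed most. Coding transcripts described as targets of nonsense-mediated decay differed more. Of these 9, limma called 0, but 5 were higher at an unadjusted p of at most 0.05 for NP, 3 for metformin and 4 for phenformin. Of all features 2.8%, 1.38% and 0.816% were higher at such a p. The medians of the 9 were 0.32, 0.17 and 0.12. ATF3, a stress-induced transcription factor, read 1.17 higher for NP (SE 0.22, adjusted p 0.164 by limma), 0.84 for metformin and 0.99 for phenformin. SLC7A11, the cystine transporter, read 0.79 higher for NP (SE 0.16, adjusted p 0.235 by limma), and 0.36 and 0.52 for the biguanides. ATF4 itself read 0.60, 0.52 and 0.57. ATF3, SLC7A11 and CARS1 are also known transcriptional targets of ATF4, so the list does not separate decay from transcription.

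The 19 snoRNP proteins and assembly factors had a median of -0.01 for NP with 0 called and 0 at an unadjusted p of at most 0.05 by limma. Of the 18 above background on all arrays, SHQ1, an assembly factor of H/ACA particles, read -0.22 and RPAP3 read 0.18. The pairs of RPAP3 gave 0.50, 0.01 and 0.02. Among 15 noncoding RNAs that host no listed snoRNA the median was 0.04 for NP, with 0 called by limma and 1 lower at an unadjusted p of at most 0.05. RPPH1, the RNA of ribonuclease P, read -0.36 for NP, -0.33 for metformin and -0.33 for phenformin, with an adjusted p of 0.728 for NP by limma, and MALAT1 read 0.33, 0.13 and 0.09. All lists were written with earlier results of these arrays known.

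**Figure D5:**
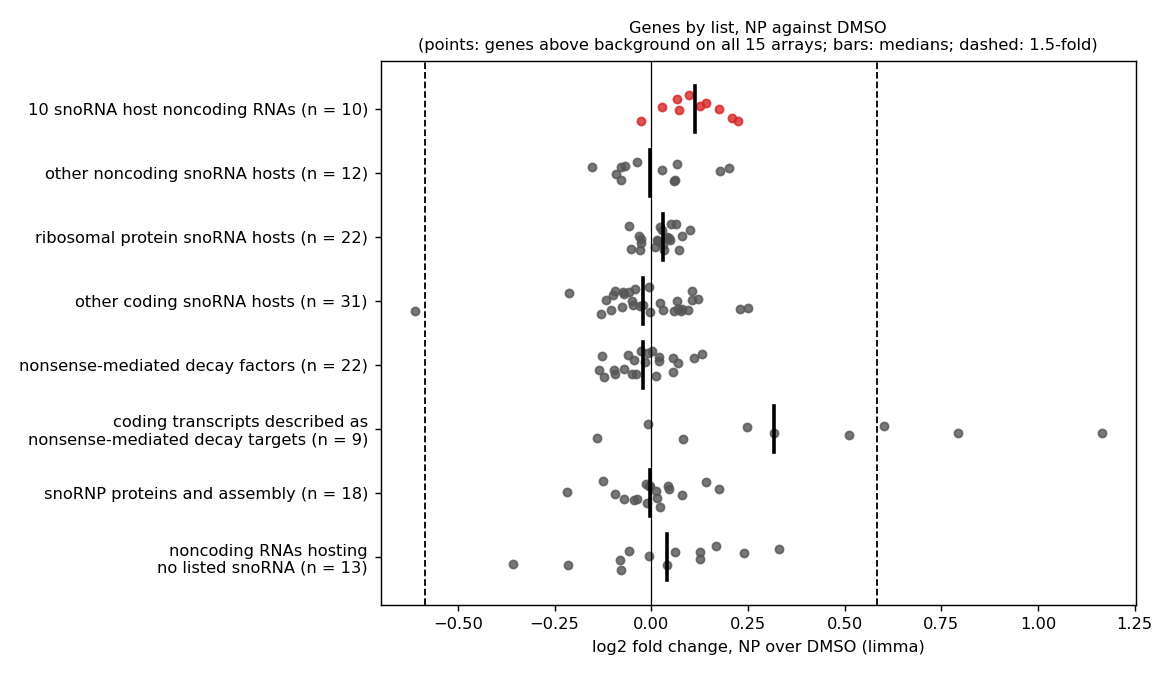
Fitted log2 fold change for NP against DMSO of the genes of each list that were above background on all 15 arrays, with a bar at the median and dashed lines at 1.5-fold. The 10 host RNAs (red) lie between -0.03 and 0.23, HSPA8 alone lies beyond the left line, and ATF4, SLC7A11 and ATF3 lie beyond the right line.

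The 10 host RNAs differed from one another in how closely they moved together. Over the 9 differences between a treated array and the solvent array of its replicate, the correlation of each with the mean of the other 9 genes ran from 0.40 (SNHG16) to 0.95 (ZFAS1), with SNHG5 at 0.93 and GAS5 at 0.79. These 9 differences are not independent, because 6 of them use the same 3 water arrays. Of 19433 features above background on every array, VPS29, CASP4, RAN, C8orf76 and STRAP had the pattern most like the mean of the 10, with correlations of 0.98 to 0.99 over the same 9 differences. Their own fitted differences for NP were -0.06 to 0.07. A correlation ignores offset and scale, so it does not show whether these genes changed as the 10 did.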

How the data were processed

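Per the file headers, the authors hybridized Cy3-labelled RNA to Agilent SurePrint arrays and extracted spot intensity values with Feature Extraction, which subtracts background and spatial trends within an array. The submitters' processing notes name version 9.1 of Agilent Feature Extraction, and the file headers give another. The authors also deposited a table of log2 values, scaled by each array's 75th percentile and not allowed below 4, used as an alternative. Its columns correlated with the scanner values at 0.962 to 0.987, and 31.3% to 50.8% of its values were at the floor. Its direction and centring are not at issue for a single-dye table.

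Here control and outlier spots were left out, replicate spots were averaged, and each array was scaled by subtracting the log2 of its 75th percentile. A probe was kept where some group had it above background on each of its 3 arrays, and a gene was read from its brightest kept probe (26826 features, 16585 with a symbol). A linear model with 5 groups and the replicate number as a block was fitted with limma 3.58.1 in R 4.3.3 (statmod 1.5.0). Tests were two-sided, and p values were adjusted by Benjamini-Hochberg across the 26826 features. The block was chosen in view of the paired test of the study's methods and the statement of 3 independent experiments. It is a replicate effect shared by all 5 groups, so the fit is not a paired test of treated against solvent arrays. Replicate shifts confined to a single slide set stay in the spread that the SEs and p values rest on. With the block set within each set of slides, limma called 52 features for NP, against 10 with the shared block. Same-numbered arrays of a compound and its own solvent deviated together in every pair, with correlations of 0.24 to 0.86. No such correlation was taken across the 2 sets of slides, although the block is shared by both. In every group replicates 1 and 2 lay on the same slide and replicate 3 on another, and the part of the slide in these correlations was not tested. Intervals are 95% intervals of the fit. The methods' t-test was the two-tailed paired test on the same values. The number of arrays limits the precision.

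Symbols came from RefSeq accessions, of which 31038 of 31770 probes had one. Coordinates, promoters and hosted snoRNAs came from RefSeq on GRCh38.p14, and probe positions were not used. All 10 genes are reported from their brightest probe, and their other probes by value or range. Of each other list of related genes, the 2 genes with the largest NP difference among those above background on all arrays are named. Limma called no gene of these lists against the own solvent. Genes of the lists that were called for DMSO against water are not named. ATF4, CARS1 and EIF4A2 were added after their values were seen. The comparison with hosted snoRNAs was also added after seeing the data. The 10 genes, the lists and the tests were chosen with earlier results of these data known. The fit was tested on simulated data. Python 3.11.15, pandas 2.3.3, numpy 2.4.6 and matplotlib 3.10.9 were used for promoters and figures. Alternatives are given in the closing section.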

Additional observations from a re-analysis of the deposited data

How the results depend on the processing

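No host RNA was called under any alternative in any comparison (0 in 17 settings for NP and 18 for each biguanide), but no feature at all was called in 7 of these settings for NP, 13 for metformin and 9 for phenformin. The median of the 10 stayed between 0.08 and 0.15 for NP, with 9 of 10 on the higher side in every setting, between -0.08 and 0.18 for metformin and between -0.06 and 0.18 for phenformin. For NP, 1 host RNA had an unadjusted p of at most 0.05. The number was 0 without the replicate block and with dim probes kept. It was 2 with the replicate block set within slides, normexp, quantile normalization, averaged probes, the fit restricted to NP and DMSO, and the methods' t-test. It was 0 to 2 when arrays were left out: 0 without any of the 3 replicate numbers, and, chosen after seeing the data, 2 without W replicate 1 and 0 without NP replicate 2. Calls over all features for NP, 10 in the main fit, were 52 with the block within slides, 26 with normexp and 17 with quantile normalization. They were 12 with averaged probes, 6 without W replicate 1 and 0 with the fit restricted to NP and DMSO. By the methods' t-test 7.6% of all features had such an unadjusted p, and for the other settings that share is not given. For metformin the number of host RNAs at such a p, 0, became 1 with the block within slides, with averaged probes and with the methods' t-test. With DMSO as the comparator, which crosses the slide sets, it was 3 for metformin (median 0.18) and 4 for phenformin, where 40% and 33.3% of all features had such a p. Leaving the replicate block out changed no call.

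Signs of single genes turned in 31 of 530 values. With DMSO as the comparator the turned values were 0.16 (SNHG1), 0.052 (SNHG5), 0.15 (SNHG8) and 0.40 (SNHG12) for metformin, and 0.15 (SNHG1), 0.43 (SNHG12), -0.024 (SNHG16) and 0.061 (ZFAS1) for phenformin. ZFAS1 read -0.016 with normexp and -0.0067 with quantile normalization for metformin, and SNHG7 read -0.011 with averaged probes for phenformin. Leaving out arrays moved SNHG12 from -0.090 to 0.072 and SNHG16 from -0.018 to 0.086 for NP. For metformin it moved ZFAS1 from -0.12 to 0.068, SNHG5 from -0.11 to 0.064, SNHG8 from -0.077 to 0.018, SNHG16 from -0.089 to 0.0049 and EPB41L4A-AS1 from -0.029 to 0.14. For phenformin it moved SNHG12 from -0.12 to 0.0098, SNHG16 from -0.020 to 0.10, ZFAS1 from -0.17 to 0.064, SNHG5 from -0.070 to 0.16, SNHG8 from -0.0035 to 0.22, GAS5 from -0.059 to 0.11 and EPB41L4A-AS1 from -0.065 to 0.21. The cause was not tested. With 3 arrays per group the 95% intervals of the 30 differences extended 0.20 to 0.36 to either side on the log2 scale.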
